A study of Mus musculus with 6 samples.

Results

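The genes described here are 35 genes of glycolysis and of the hypoxia response, chosen by name from the 46078 genes in the count tables. They comprise 3 carriers of glucose and lactate, 16 glycolytic enzymes, 3 kinases that regulate glycolysis and pyruvate entry, 9 other targets of the hypoxia-inducible factors (HIFs), and 4 genes of the factors themselves and of Vhl. All 35 passed the low-count filter and were among the 16813 genes tested, so no member was lost for low counts.

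RNA of growth plate cartilage was sequenced in bulk at E18.5 in 3 control and 3 Idh1 mutant libraries. The cartilage came from the distal femur and proximal tibia, and every animal of both groups carried the conditional allele Idh1 LSL/+, in which a lox-flanked stop precedes a mutant Idh1. The mutants also carried Col2a1-Cre, a transgene expressed in cells that make type II collagen, and the controls had no Cre, so that Cre and the mutant enzyme cannot be told apart. The comparison asks whether mutant Idh1 changed the RNA of these genes in the growth plate.

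Glycolysis breaks glucose down to pyruvate, and lactate dehydrogenase then turns pyruvate into lactate. The growth plate has few vessels, its centre is hypoxic, and its chondrocytes depend on Hif1a and on glycolysis for survival and matrix synthesis. When oxygen is low, HIF-alpha proteins escape prolyl hydroxylation and degradation through Vhl, pair with Arnt and bind hypoxia response elements near genes of glucose uptake, glycolysis, pH control and mitophagy. The hydroxylases use alpha-ketoglutarate, the metabolite that mutant Idh1 converts to hydroxyglutarate, and HIF-alpha is controlled largely at the protein level, which RNA counts do not measure.

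The libraries held between 23445687 and 30415773 counted reads, and a floor of 3 counts equals 0.0986 to 0.128 CPM (counts scaled to the library total), for counting error only. Idh1 itself did not separate the groups, with a log2 fold change of 0.10 (SE 0.19, adjusted p = 0.940, Benjamini-Hochberg adjustment in edgeR). Mutant 3 stood apart from the other 5 libraries in sex-linked RNA, with 26356 Xist counts against at most 13 elsewhere and 0 counts of 4 Y-linked genes. Chondrocyte markers were present in every library, but so were markers of other tissues. The summed level of 10 skeletal muscle markers was 17133, 18633 and 25263 CPM in controls 1, 2 and 3 and 23673, 22478 and 16290 CPM in mutants 1, 2 and 3. It exceeded that of 10 cartilage markers (3421 to 7495 CPM) in all 6 libraries. The sum of 8 erythroid markers was lower in every mutant (291 to 431 CPM) than in any control (551 to 1592 CPM), as was that of 5 tendon markers (1207 to 1474 CPM against 1528 to 1678 CPM). The sums of 8 hypertrophic and bone markers (426 to 1777 CPM in controls, 1502 to 2377 CPM in mutants) and of 5 leukocyte markers (248 to 291 and 261 to 357 CPM) were higher on average in the mutants, with overlapping groups. Most of the rise in the hypertrophic and bone sum came from Ibsp, whose mean went from 475 to 1190 CPM while the mean sum went from 998 to 1878 CPM. The fitted log2 fold change was above 0 in 6 of these 8 markers and below 0 in Mmp13 (-0.32) and Ihh (-0.26). In bulk RNA, fewer cells of a type and less RNA per cell cannot be told apart.

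The sequences before the start of 3 genes are shown because the results turn on these genes. Pgk1 and Ldha are the glycolytic members with non-overlapping groups whose window held no annotated exon, and Car12 had the largest fitted change of all members. Each is the 250 bases before the RefSeq start nearest the start of the counted gene, on GRCm38.p6, written 5′ to 3′ on the strand of the gene. Capitals mark the core of the hypoxia response element, ACGTG or GCGTG, on either strand, so that CACGT and CACGC are its reverse complements. Pgk1 lies at chrX:106186850-106187099 and Ldha at chr7:46845554-46845803, and Car12 lies at chr9:66713436-66713685. All 3 are on the forward strand.
Pgk1: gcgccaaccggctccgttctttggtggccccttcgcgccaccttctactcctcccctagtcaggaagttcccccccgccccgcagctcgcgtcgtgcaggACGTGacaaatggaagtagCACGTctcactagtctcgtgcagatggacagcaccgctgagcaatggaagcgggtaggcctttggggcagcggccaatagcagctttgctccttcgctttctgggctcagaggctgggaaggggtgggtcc
Ldha: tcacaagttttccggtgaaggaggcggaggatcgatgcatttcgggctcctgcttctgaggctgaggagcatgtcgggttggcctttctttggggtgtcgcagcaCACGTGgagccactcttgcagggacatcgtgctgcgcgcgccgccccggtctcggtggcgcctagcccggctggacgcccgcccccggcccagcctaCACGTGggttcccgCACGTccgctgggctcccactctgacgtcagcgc
Car12: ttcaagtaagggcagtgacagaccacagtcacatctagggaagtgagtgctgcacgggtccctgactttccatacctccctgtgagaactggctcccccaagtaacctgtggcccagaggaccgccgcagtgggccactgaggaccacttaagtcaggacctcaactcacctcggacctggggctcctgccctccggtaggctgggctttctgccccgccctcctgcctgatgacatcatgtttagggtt

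The Pgk1 window held 2 separate stretches of the core and the Ldha window held 3. In Ldha 2 of these stretches were the palindrome CACGTG, which holds the core on both strands and was counted as 1 stretch. Car12 held no match in these 250 bases, which says only that these letters were not in the window. In the RefSeq table used, 31 of the 35 members were matched, all but Slc2a3, Bnip3l, Ndrg1 and Epas1. The core occurred in 22 of the 31 windows (71%), and in 6304 of 11466 windows (55%) of all tested genes with an entry. Windows with 2 or more stretches made up 38.7% of the members' and 23% of all. Among the members, Bnip3 held 4 stretches and Pfkp, Pgam1, Ldha and Ankrd37 held 3 each. Hk1, Gpi1, Aldoa, Tpi1, Eno2, Pkm, Car12, Mxi1 and Vhl held none in the window used. Only the start nearest that of the counted gene was scanned, and RefSeq listed several entries for some genes. Of those without a core, Hk1 and Pkm had 2 entries each and Aldoa and Mxi1 had 3 each, so their other starts were not examined. Of the windows without a core, those of Pkm, Aldoa, Gpi1 and Tpi1 held 208, 193, 167 and 138 bases of annotated exon. For these genes the lack of a core says little about sequence upstream of exons. A core this short is common in promoters, and a match is not a measured binding site.

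Levels were compared between genes per kilobase of exon not shared with other genes, because reads that map to several places were not counted and several of these enzymes have processed copies. The unshared exon was estimated from windows of 50 bases, the read length. The share of unshared windows was taken over all annotated transcripts of a gene and applied to its counted exon length. These bases differ, with 5133 windows against 2599 exon bases in Pkm. The order of members with near levels, such as Aldoa and Pkm, is therefore not settled. On this scale Aldoa (aldolase A) was the highest member in the controls at 459 CPM per kb, followed by Pkm (pyruvate kinase) at 390, Tpi1 (triosephosphate isomerase) at 337, Gapdh (glyceraldehyde-3-phosphate dehydrogenase) at 317 and Ldha at 290 CPM per kb. Eno1 (enolase) followed at 88.4, Pfkm (muscle phosphofructokinase) at 79.2, Pgk1 (phosphoglycerate kinase) at 71.9 and Gpi1 (glucose-6-phosphate isomerase) at 68.0 CPM per kb. These listed enzymes stood well above the entry step, with Slc2a1 at 13.9, Hk2 at 10.05 and Hk1 at 9.02 CPM per kb. Other enzymes of the lower and middle pathway were nearer to it, with Pfkl at 24.1 and Pgam1 at 22.8 CPM per kb. Pfkp, at 5.16 CPM per kb, lay below it, as did Eno2 and Aldoc. The order is that of the bulk sample, in which muscle markers exceeded cartilage markers in every library. Which cells the RNA came from was not tested. Aldoc was the lowest member at 0.706 CPM per kb, and Slc2a3 came next at 1.29 CPM per kb. Shared windows made up 53.9% of Pgk1, 47.2% of Bnip3, 36.2% of Pgam1 and 25.99% of Eno1, so the levels of these members are the least certain. The counts on named copies were small, 148 over all 6 libraries for Eno1b and 75 for Pgk1-rs7. Reads shared by a gene and its copy were left out of both, so these counts do not show how many were lost.

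**Figure D1:**
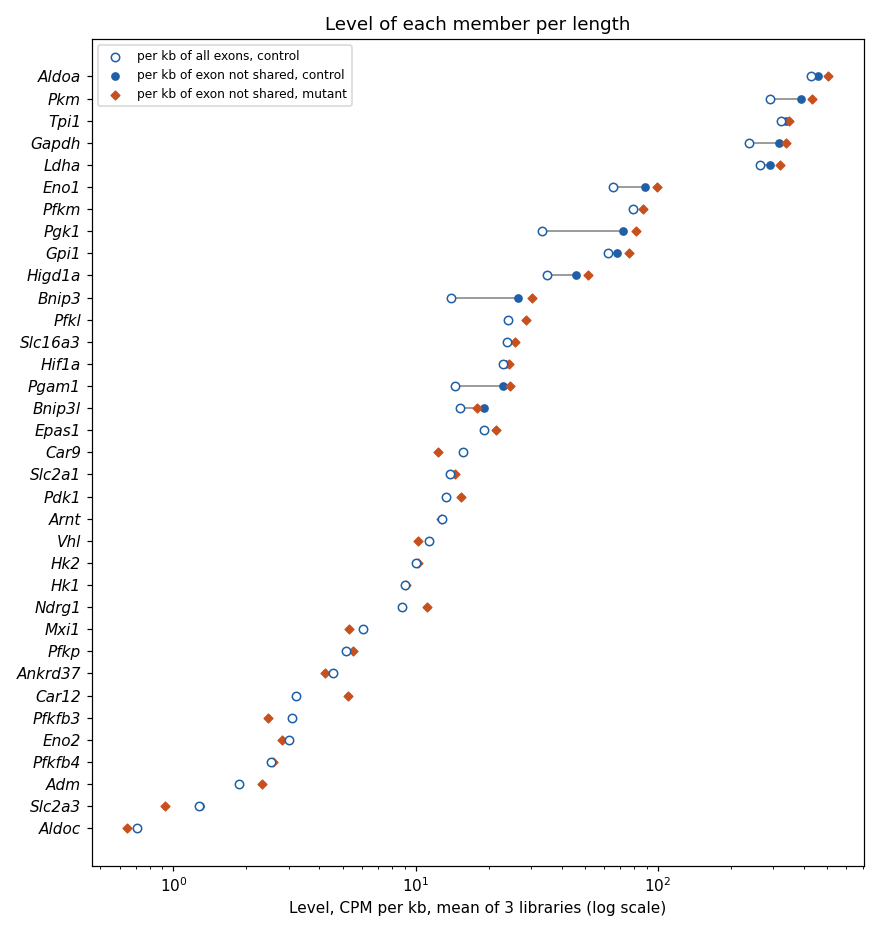
Mean level of each of the 35 members in CPM per kb over 3 libraries on a log axis, ordered by the control level. Open circles divide by all exon length in controls, filled circles (control) and diamonds (mutant) by the estimated exon length not shared with other genes. Grey lines join both control values. Aldoa, Pkm, Tpi1, Gapdh and Ldha led with 290 to 459 CPM per kb in the controls.

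No member passed the threshold. At an adjusted p under 0.05, edgeR's quasi-likelihood test called 0 of the 35 members, against a background of 32 of 16813 genes (0.19%), with 9 of them up (0.0535%) and 23 down (0.137%) in mutant cartilage. DESeq2, which called 1.15% of all genes, and limma-voom also called 0 members. At an unadjusted p under 0.05, edgeR had 6 of the 35 members, DESeq2 4 and limma-voom 5. Of all genes, 8.64% lay under that level in edgeR, 7.35% in DESeq2 and 8.49% in limma-voom. The 6 in edgeR were Pfkl, Pgk1, Car12 and Ndrg1 with higher and Slc2a3 and Pfkfb3 with lower fitted values in the mutants. The levels of the 3 mutants lay wholly above or wholly below those of the 3 controls in 6 members (17.1%), and in 14.4% of all genes tested (6.85% higher and 7.58% lower), so the members' share was close to the background. These 6 were Pfkl, Pgk1, Ldha, Ndrg1 and Epas1 (higher) and Slc2a3 (lower). The fitted log2 fold change was above 0 in 25 members (71.4%) and in 49.3% of all genes, with a median of 0.09 over the members and of -0.0026 over all genes. No test was made over the list, since it was chosen with results of these data known.

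**Figure D2:**
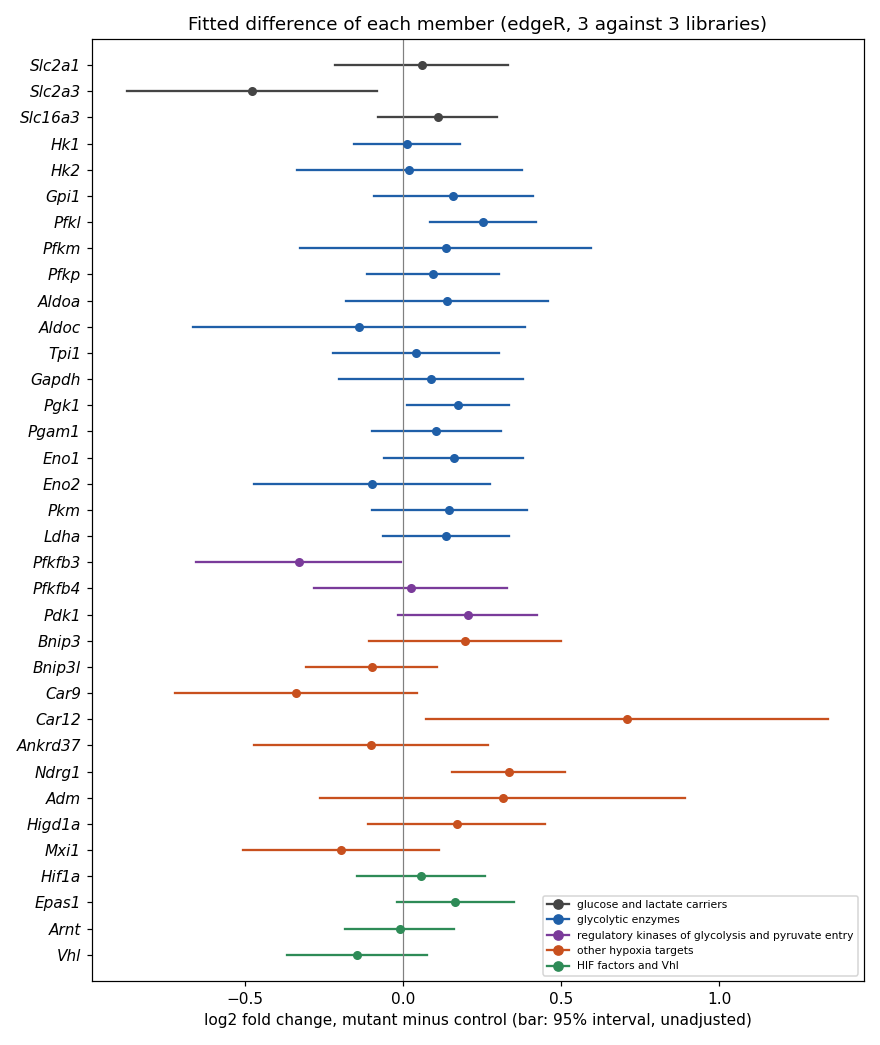
Fitted log2 fold change, mutant minus control, of each member in edgeR, with the unadjusted 95% interval from 3 against 3 libraries, coloured by role. The intervals of Pfkl, Pgk1, Car12 and Ndrg1 lay above 0 and those of Slc2a3 and Pfkfb3 below 0, and no member passed the adjusted threshold.

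Of the carriers, Slc2a3 alone had groups that did not overlap. Slc2a1, which encodes the glucose carrier GLUT1, had 42.6, 58.4 and 45.3 CPM across controls 1 to 3 and 55.5, 49.0 and 48.0 CPM across mutants 1 to 3. The groups overlapped, and the log2 fold change was 0.06 (95% interval -0.21 to 0.33). Slc2a3 (chromosome 6, 122727809 to 122801640, reverse strand of GRCm38) encodes GLUT3, a high-affinity carrier best known from neurons. It had 7.92, 11.7 and 8.09 CPM across controls 1 to 3 and 7.29, 6.13 and 6.48 CPM across mutants 1 to 3. Every mutant lay below every control, but the lowest control and the highest mutant were close and control 2 was far above the rest. The log2 fold change was -0.48 (SE 0.18, adjusted p = 0.485, Benjamini-Hochberg adjustment in edgeR), and -0.27 without control 2. Erythroid markers were also lower in every mutant and highest in control 2, and their part in the Slc2a3 value was not tested. Slc16a3, which encodes the lactate exporter MCT4, had 117, 135 and 128 CPM across controls 1 to 3 and 145, 131 and 133 CPM across mutants 1 to 3, with overlapping groups (log2 fold change 0.11, SE 0.08).

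As a share of the summed CPM per kb of unshared exon of Slc2a1 and Slc2a3, Slc2a3 took 8.35, 8.93 and 8.04% across controls 1 to 3 and 6.05, 5.78 and 6.20% across mutants 1 to 3. The groups did not overlap, and the share varied less within each group than the CPM of either gene. Slc2a1 was the main glucose carrier of the pair in all 6 libraries. The shares were not tested. With 3 against 3 libraries, an exact two-sided permutation test of a share could not go below p = 0.1.

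Of the 16 glycolytic enzymes, 14 had a fitted log2 fold change above 0, with a median of 0.12 and a range of -0.14 to 0.25. The 2 below 0 were the low isoenzymes Aldoc (aldolase C, -0.14) and Eno2 (neuronal enolase, -0.10). The count of 14 was the same under other normalizations, filters and tools, but fell to 10 without mutant 1 and to 11 without control 1. The median fell to 0.06 and 0.07 in these 2 cases. The mean log2 deviation of the 16 enzymes from their control means was -0.08, 0.02 and 0.07 in controls 1, 2 and 3 and 0.21, 0.10 and -0.04 in mutants 1, 2 and 3. Mutants 1 and 2 thus lay above every control, while mutant 3 lay between controls 1 and 2.

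Pfkl, the liver-type phosphofructokinase of the committed step, was the enzyme with the largest difference. It lies on chromosome 10 from 77986947 to 78010083 on the reverse strand. The libraries held 108, 103 and 106 CPM across controls 1 to 3 and 133, 120 and 124 CPM across mutants 1 to 3. The lowest mutant stood above the highest control, and the spread within the controls was small (SD 2.52 CPM, n = 3). The fold was 1.19 (95% interval 1.06 to 1.34, unadjusted p = 0.00753 and adjusted p = 0.356 in edgeR). Leaving out any library kept its log2 fold change between 0.21 and 0.29, with adjusted p from 0.387 to 0.720 in edgeR.

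Pgk1, which makes the first ATP of the pathway, lies on chromosome X from 106187100 to 106203699 on the forward strand. It had 73.9, 75.9 and 73.4 CPM across controls 1 to 3 and 85.5, 79.8 and 86.4 CPM across mutants 1 to 3. Again no mutant reached down to a control. The fold was 1.13 (95% interval 1.01 to 1.26, unadjusted p = 0.0384 and adjusted p = 0.541 in edgeR). Pgk1 is X-linked and mutant 3 differs in sex-linked RNA; without mutant 3 its log2 fold change was 0.15 in place of 0.17. Ldha, which makes lactate from pyruvate, had 751, 792 and 813 CPM across controls 1 to 3 and 878, 877 and 832 CPM across mutants 1 to 3. The lowest mutant and the highest control were close, and the log2 fold change was 0.13 (SE 0.09, adjusted p = 0.749 in edgeR).

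The remaining enzymes overlapped between the groups. Hk1, the hexokinase of most tissues, ranged from 73.9 to 79.9 CPM in the controls and from 73.9 to 81.0 CPM in the mutants. Hk2, the inducible hexokinase, had 51.0, 53.8 and 75.0 CPM across controls 1 to 3 and 71.5, 59.2 and 51.8 CPM across mutants 1 to 3. Control 3 and mutant 1 were both high, so the group means of 60.0 and 60.8 CPM hid a wide spread. Pfkm had 203, 212 and 287 CPM across controls 1 to 3 and 318, 277 and 175 CPM across mutants 1 to 3. Aldoa had 1029.7, 1138 and 1384 CPM across controls 1 to 3 and 1437, 1371 and 1101 CPM across mutants 1 to 3. Gapdh, often used as a reference gene, had 901, 906 and 1149.6 CPM across controls 1 to 3 and 1146, 1074 and 921 CPM across mutants 1 to 3. In these 4 genes control 3, mutant 1 and mutant 2 all ranked above controls 1 and 2 and mutant 3, and the same held for Tpi1 and Gpi1. Tpi1 (log2 fold change 0.04), Gpi1 (0.16), Pfkp, the platelet phosphofructokinase (0.09), Pgam1, phosphoglycerate mutase (0.10), Eno1 (0.16) and Pkm (0.15) had standard errors of 0.09 to 0.12.

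**Figure D3:**
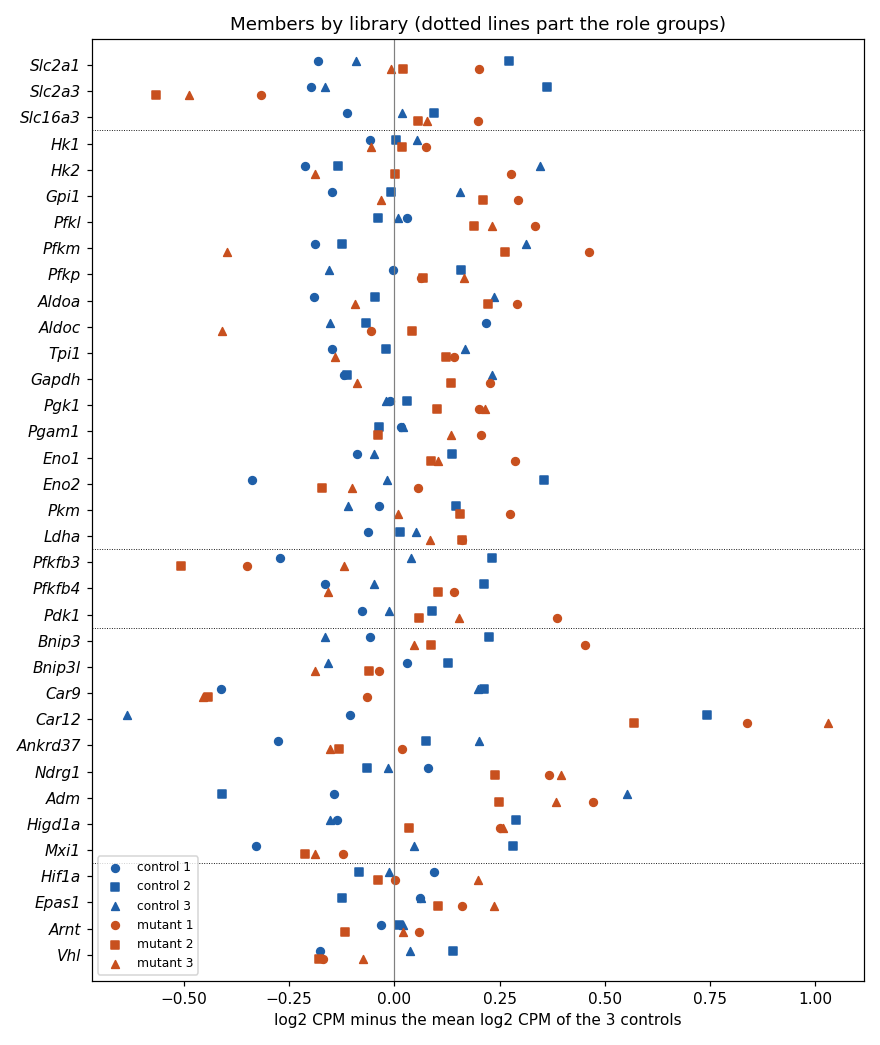
Log2 CPM of each member in each library minus the mean log2 CPM of the 3 controls, with controls in blue and mutants in orange and 1 symbol per replicate number. Pfkl, Pgk1, Ldha, Ndrg1 and Epas1 had every mutant to the right of every control, Slc2a3 had every mutant to the left, and the other 29 members overlapped.

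The muscle markers split the libraries in the same way, with control 3, mutant 1 and mutant 2 above controls 1 and 2 and mutant 3. These markers include Eno3 and Pygm, which are themselves enzymes of glycolysis and of glycogen breakdown. Pfkm is the phosphofructokinase of skeletal muscle, and Hk2, Aldoa and Gapdh are abundant there. When the muscle marker level of each library entered the edgeR fit as a covariate, chosen after seeing the data, the standard error of Pfkm fell from 0.206 to 0.0890. The standard error fell by more than 1.5 times in Hk2, Pfkm, Aldoa and Gapdh, 4 of the 16 enzymes (1.48 times in Gpi1 and 1.43 times in Tpi1). It fell as much in 0 of the 9 other hypoxia targets and in 2.49% of all genes. Since the covariate was chosen after these genes and the markers were seen to split the libraries alike, their smaller standard errors follow from that choice. The cause of the shared split was not tested. The genotype term of Hk2, Pfkm, Aldoa and Gapdh stayed small, with log2 fold changes between 0.00 and 0.12. In this fit 0 members passed the threshold (64 of all genes, 0.381%), and 7 had an unadjusted p under 0.05 in edgeR, against 9.84% of all genes. Pfkl (0.25), Pgk1 (0.18) and Slc2a3 (-0.47) kept nearly the same log2 fold change with and without the covariate.

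**Figure D4:**
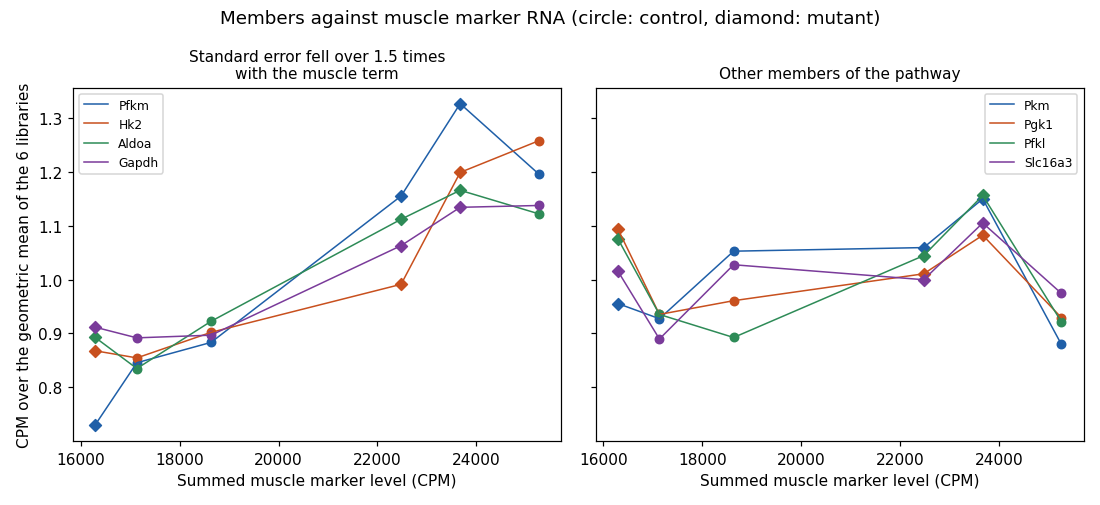
Level of 8 members in each library, as CPM divided by the geometric mean of the 6 libraries, against the summed level of 10 muscle markers in CPM (circles, controls; diamonds, mutants; lines join the libraries in order). The left panel shows the 4 members whose standard error fell by more than 1.5 times with the muscle covariate, which were lowest in the 3 libraries with least muscle RNA; the right panel shows 4 others, among them Pgk1 and Pfkl, for comparison.

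Of the CPM per kb of unshared exon of the phosphofructokinases, Pfkm took 69.8 to 77.1% in the controls and 63.6 to 75.1% in the mutants, so that it was the main isoenzyme in every library. Hk2 took 49.7 to 57.3% of the hexokinase pair in the controls and 50.03 to 55.8% in the mutants, and Hk1 was the larger of the pair in controls 1 and 2 only. Aldoa took over 99% of the pair with Aldoc, and Eno1 took 96.3 to 97.3% of the pair with Eno2, in all 6 libraries. The enolase pair leaves out Eno3, which is not a member and is counted among the muscle markers below. Per kb of all exon, Eno3 stood above Eno1, with control means of 351 against 65.4 CPM and mutant means of 377 against 73.1 CPM. Eno1 was thus the larger of its pair, not the main enolase RNA of these libraries. The low relatives Aldoc (1.72 to 2.66 CPM) and Eno2 (10.9 to 17.7 CPM) overlapped between the groups.

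Among the regulatory kinases, Pfkfb3 makes fructose-2,6-bisphosphate, the strongest activator of phosphofructokinase. It had 19.1, 27.1 and 23.7 CPM across controls 1 to 3 and 18.1, 16.2 and 21.2 CPM across mutants 1 to 3. Mutant 3 stood above control 1, so the groups overlapped. The log2 fold change was -0.33 (SE 0.15, unadjusted p = 0.0466 and adjusted p = 0.567 in edgeR), and -0.20 without control 2. Its relative Pfkfb4 had 10.9 to 14.2 CPM in the controls and 10.96 to 13.5 CPM in the mutants (log2 fold change 0.02). Pdk1, which blocks pyruvate dehydrogenase and so keeps pyruvate out of mitochondria, had 98.3, 110 and 103 CPM across controls 1 to 3 and 135, 108 and 115 CPM across mutants 1 to 3. Only mutant 2 fell within the range of the controls, and the log2 fold change was 0.20 (SE 0.10, adjusted p = 0.626 in edgeR), and 0.10 without mutant 1.

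The other hypoxia targets were split in direction. Of the 9, 5 had a fitted value above 0 and 4 below, with a median of 0.17 and a range from -0.34 to 0.71. Ndrg1, a stress-responsive gene that is a common marker of hypoxia, had the lowest p of all members. It lies on chromosome 15 from 66929321 to 66969640 on the reverse strand. It had 61.3, 55.5 and 57.5 CPM across controls 1 to 3 and 74.9, 68.5 and 76.4 CPM across mutants 1 to 3. The groups were well apart, with a fold of 1.26 (95% interval 1.11 to 1.43). The log2 fold change was 0.33 (SE 0.08, unadjusted p = 0.00203 and adjusted p = 0.200, Benjamini-Hochberg adjustment in edgeR). By p it ranked 170 among the 16813 genes. It lay between 0.30 and 0.39 when any library was left out, and the adjusted p over all alternatives ran from 0.0780 (DESeq2) to 0.559. Exons of other genes overlapped 8.43% of its exon bases, and reads that touch more than 1 gene were not counted.

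Car12 and Car9 encode membrane carbonic anhydrases that buffer acid outside the cell, and they pointed in opposite directions. Car12 (chromosome 9, 66713686 to 66766845, forward strand) had 12.5, 22.4 and 8.64 CPM across controls 1 to 3 and 23.99, 19.9 and 27.4 CPM across mutants 1 to 3. Only mutant 2 fell below a control, control 2. The fold was 1.63, but with a wide interval of 1.05 to 2.54 (unadjusted p = 0.0327 and adjusted p = 0.524 in edgeR), and the log2 fold change of 0.71 became 1.18 without control 2 and 0.45 without control 3. Car9 had 26.6, 41.0 and 40.6 CPM across controls 1 to 3 and 33.8, 26 and 25.8 CPM across mutants 1 to 3. Control 1 lay among the mutants, and the log2 fold change was -0.34 (SE 0.17, adjusted p = 0.645 in edgeR). As a share of their summed CPM per kb of unshared exon, Car12 took 19.2, 21.7 and 9.75% across controls 1 to 3 and 26.5, 28.0 and 35.03% across mutants 1 to 3. The shares of the groups did not overlap, although the CPM of both genes did.

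Bnip3 and Bnip3l encode receptors of mitophagy, the removal of mitochondria. Bnip3 had 30.2, 36.7 and 28.0 CPM across controls 1 to 3 and 43.0, 33.4 and 32.5 CPM across mutants 1 to 3, and Bnip3l had 59.8, 64.0 and 52.5 CPM against 57.1, 56.2 and 51.3 CPM. Both overlapped between the groups, with log2 fold changes of 0.20 and -0.10. Bnip3 fell to 0.06 without mutant 1 and Bnip3l to -0.03 without control 2. Per kb of unshared exon, Bnip3 took 56.3, 59.5 and 57.7% of the pair across controls 1 to 3 and 65.8, 60.3 and 61.8% across mutants 1 to 3. These shares did not overlap, but 59.5 and 60.3% are close. Per kb of all exon the mean shares were 47.8 and 52.8%, since 47.2% of the Bnip3 windows and 20.8% of the Bnip3l windows were shared with other genes.

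**Figure D5:**
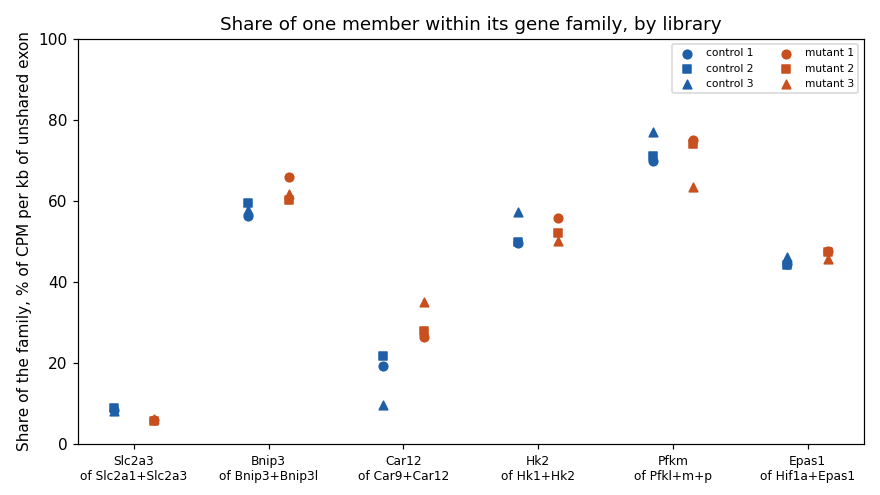
Share of 1 member in the summed CPM per kb of unshared exon of its gene family in each library (%, controls in blue, mutants in orange). Slc2a3 was lower and Bnip3 and Car12 were higher in every mutant than in any control, and the shares of Hk2, Pfkm and Epas1 overlapped.

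The remaining targets were variable. Adm, which encodes the vasodilator peptide adrenomedullin, was low, with 2.63, 2.19 and 4.26 CPM across controls 1 to 3 and 4.03, 3.45 and 3.79 CPM across mutants 1 to 3 (log2 fold change 0.31, SE 0.26). Higd1a, a mitochondrial protein of the respiratory chain, had 57.9 to 78.7 CPM in the controls and 66.0 to 76.9 CPM in the mutants. Mxi1, an antagonist of Myc, had 26.7 to 40.8 CPM in the controls and 29.0 to 30.9 CPM in the mutants. Ankrd37 had 5.22 to 7.26 CPM and 5.69 to 6.40 CPM, and other genes overlapped 28.9% of its exon bases. In each of these 4 genes the mutants spread less than the controls. This was not particular to them. Over all genes with enough counts, pairs of mutants differed by a chi-square of 11.6 to 25.1 per degree of freedom and pairs of controls by 28.4 to 45.1.

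The fitted differences of the HIF factors themselves were small. Hif1a had 145, 128 and 134 CPM across controls 1 to 3 and 135, 132 and 155 CPM across mutants 1 to 3, with overlapping groups and a log2 fold change of 0.06 (95% interval -0.15 to 0.26). Epas1, which encodes HIF2-alpha, had 106, 93.0 and 106 CPM across controls 1 to 3 and 113, 109 and 119 CPM across mutants 1 to 3. Its groups did not overlap, with a fold of 1.12 (95% interval 0.987 to 1.28, adjusted p = 0.635 in edgeR). Epas1 is also abundant in endothelium, whose 5 markers summed to 719 to 750 CPM in the controls and 724 to 818 CPM in the mutants, and their part in the Epas1 value was not tested. Epas1 took 44.3 to 46.3% of the CPM per kb of unshared exon of the pair in the controls and 45.6 to 47.7% in the mutants, so that neither alpha subunit was dominant. Arnt, their shared partner, had 100.3, 103 and 104 CPM across controls 1 to 3 and 107, 94.4 and 104 CPM across mutants 1 to 3. Vhl, which marks hydroxylated HIF-alpha for degradation, had 30.01, 37.4 and 34.8 CPM across controls 1 to 3 and 30.1, 29.9 and 32.2 CPM across mutants 1 to 3 (log2 fold change -0.15, SE 0.10). The 95% intervals of Hif1a, Arnt and Vhl lay within -0.37 and 0.26 on the log2 scale, which bounds the change that these libraries allow.

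The glycolytic enzymes and the other hypoxia targets were set against each other. The median log2 fold change was 0.12 for the enzymes and 0.17 for the other targets. The mean deviation of the enzymes minus that of the targets was 0.07, -0.15 and 0.08 in controls 1, 2 and 3 and -0.04, 0.06 and -0.16 in mutants 1, 2 and 3. The ranges of the groups overlapped in large part. In mutant 3 the targets lay 0.13 above the control mean while the enzymes lay 0.04 below it. That library also had the least muscle RNA. With the muscle covariate the medians were 0.11 for the enzymes and 0.18 for the targets.

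Other genes of these pathways were then examined. Of 39 further genes of glycolysis, glycogen and pyruvate metabolism, 37 were tested and 0 passed the threshold in edgeR (0.19% of all genes). An unadjusted p under 0.05 in edgeR was found for 5, beside 8.64% of all genes. In 8 (21.6%) the groups did not overlap, 2 higher and 6 lower, beside 14.4% of all genes (6.85% higher and 7.58% lower). Bpgm, which makes the red cell metabolite bisphosphoglycerate, had the lowest p. It had 20.6, 22.8 and 18.7 CPM across controls 1 to 3 and 14.0, 15.6 and 13.7 CPM across mutants 1 to 3 (log2 fold change -0.52, SE 0.11, adjusted p = 0.142 in edgeR and 0.0179 in DESeq2). Erythroid markers were lower in the same libraries, and their part in the Bpgm value was not tested. Next came Pygl, liver glycogen phosphorylase (-0.30, adjusted p = 0.422 in edgeR), and Slc2a10, the carrier GLUT10 (0.31, adjusted p = 0.470 in edgeR).

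Of 36 further hypoxia targets, 0 passed the threshold in edgeR and 5 had an unadjusted p under 0.05, beside 8.64% of all genes. In 5 (13.9%) the groups did not overlap, 4 of them higher, and the share over all genes was 14.4%. The 3 with the lowest p were P4ha2, Wsb1 and P4ha1. P4ha2, a collagen prolyl hydroxylase subunit, had 194, 203 and 169 CPM across controls 1 to 3 and 266, 273 and 325 CPM across mutants 1 to 3 (log2 fold change 0.61, adjusted p = 0.0813 in edgeR and 5.35e-05 in DESeq2). Wsb1, an E3 ligase adaptor, had 135, 137 and 102 CPM across controls 1 to 3 and 221, 189 and 186 CPM across mutants 1 to 3 (0.67, adjusted p = 0.0971 in edgeR and 9.48e-05 in DESeq2). P4ha1, the alternative subunit to P4ha2, had 380, 379 and 323 CPM against 475, 524 and 492 CPM (0.46, adjusted p = 0.141 in edgeR and 0.000840 in DESeq2). Every mutant stood above every control in all 3 genes, by more than in any of the 16 glycolytic enzymes. Of 18 genes of oxygen sensing and HIF partners, 0 passed the threshold in edgeR. An unadjusted p under 0.05 in edgeR was found for 0 (8.64% of all genes), and 0 had groups that did not overlap (14.4% of all genes). Those with the lowest p were Egln2, a HIF prolyl hydroxylase (-0.11), Arnt2 (-0.23) and Cited2 (0.12), with adjusted p of 0.777 to 0.872 in edgeR.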

How the data were processed

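Bulk RNA-seq counts of 6 libraries, 3 control and 3 Idh1 mutant, were used, grouped by the sample titles. The authors trimmed reads with Trim Galore 0.6.4, mapped them to GRCm38 with STAR 2.6.1d and counted them on exons with featureCounts 1.6.4, ignoring strand and leaving out reads on several places or genes, per the file headers and the submitters' processing notes. The values the authors deposited are raw counts per gene. The labels' text on animal care gives 2 months, but their age field gives E18.5, which was used. Nothing in the labels names litters, so that p-values measure the spread between these libraries.

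The counts were fitted in edgeR 4.0.16 under R 4.3.3 (TMM, filterByExpr with minimum count 10 and minimum total 15, quasi-likelihood test on genotype alone) and 16813 genes were tested with Benjamini-Hochberg adjustment and a threshold of 0.05. The study's methods also name litter as a term. The biological coefficient of variation was 0.131. CPM used the TMM factors (0.964 to 1.02). Alternatives were DESeq2 1.42.0, limma-voom (limma 3.58.1), other normalizations and filters, a replicate block and each library left out. A muscle marker covariate was added after seeing the data. All 35 members are named, and of each wider list the 3 genes with the lowest p. The members and lists were chosen with earlier results of these data known. Replicate libraries differed by more than sampling noise (a chi-square of 11.6 to 45.1 per degree of freedom). The functions were tested on simulated data. Exon overlaps between genes came from the exons used for counting. Shared windows and the annotated exon within promoter windows came from GENCODE M21. Promoters came from RefSeq on GRCm38.p6, as the 250 bases before the start nearest that of the counted gene. Protein sequences were not used here. No column of per-sample values was left unused.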

Additional observations from a re-analysis of the deposited data

How the results depend on the processing

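The count of members past the threshold was 0 in edgeR and under every alternative but 1: with no low-count filter Car12 passed (adjusted p = 0.0259, against at least 0.146 in each other setting that left out a library or changed the fit). The count over all genes was 32, and became 193 in DESeq2, 19 in limma-voom, 259 with no low-count filter, 64 with the muscle covariate, 3 in edgeR with the replicate block and 96 in DESeq2 with the replicate block. With 1 library left out it was 3 to 17, with 0 to 0 members called. Without mutant 3, the library that stands apart in sex-linked RNA, 6 genes and 0 members were called. The number of members with separate groups, 6, was 7 to 15 with 1 library left out, with 11, 15 and 10 without control 1, control 2 and mutant 2. These are 31.4, 42.9 and 28.6% of the members, beside 26.5, 25.4 and 21% of all genes in the same settings, since fewer libraries separate more easily. The replicate block left 0 members called. No pairing by number was visible, with correlations of deviations of -0.16, -0.0068 and -0.15 for numbers 1, 2 and 3. Between unlike numbers they ran from -0.054 to 0.20. Whether libraries shared a litter was not tested.

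The medians of the enzymes and of the other targets kept their sign in every setting run, while the enzymes' median minus that of the targets ran from -0.13 to 0.06 with 1 library left out. Arnt turned sign with upper-quartile factors (0.00091). With 1 library left out, 10 members changed sign in at least 1 setting, all with a main log2 fold change of at most 0.13 in size. Their lowest and highest values were -0.030 and 0.213 for Slc2a1, -0.020 and 0.045 for Hk1, -0.11 and 0.22 for Hk2, -0.049 and 0.347 for Pfkm, -0.032 and 0.132 for Tpi1, -0.25 and 0.10 for Eno2, -0.056 and 0.143 for Pfkfb4, -0.23 and 0.0039 for Ankrd37, -0.021 and 0.106 for Hif1a and -0.047 and 0.045 for Arnt. For these sign changes the cause was not tested. Among the wider genes, calls were made for Bpgm in 2 settings, for P4ha2 in 4 and for Wsb1 and P4ha1 in 3 each of 15. Of the other 25 members, Pfkl, Pgk1, Ldha and Ndrg1 stayed within 1.5 times of their value with any library left out, and 21 did not. The 95% intervals of the 16 enzymes included 0 except in Pfkl and Pgk1.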
